A study of Mus musculus with 8 samples.

Results

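The miRNAs described here are those used as markers of blood vessels and of the tissue around them: mmu-miR-126a-3p and mmu-miR-126a-5p of endothelial cells, mmu-miR-143-3p, mmu-miR-145a-5p and mmu-miR-145a-3p of mural cells, and mmu-miR-199a-3p, mmu-miR-199a-5p, mmu-miR-199b-3p and mmu-miR-214-3p of mesenchymal cells such as those of the meninges. They were chosen by name as a readout of vessels and meninges. Of the 9 miRNAs listed, 6 were among the 422 miRNAs of the count table, and miR-145a-3p, miR-199a-5p and miR-214-3p had no row. miR-199a-3p and miR-199b-3p had the same count in each library, so that the 6 rows hold 5 different sets of counts. Libraries of small RNA were made from the hippocampi of 4 C57BL/6J (B6) and 4 BTBR T+ Itpr3tf/J (BTBR) mice, with 1 library per mouse. All were untreated adult males at 12 weeks of age. B6 is the usual reference strain, and BTBR is an inbred strain used as a mouse model of autism, which carries the tf allele of Itpr3 among many other differences from B6, so that a difference between the strains belongs to no single locus. The hippocampi were punched from brain slices after decapitation, and the methods name no perfusion step to clear blood from the vessels.

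Endothelial cells line the vessels, mural cells (smooth muscle cells and pericytes) wrap them, and fibroblast-like cells fill the meninges and the outer sheath of larger vessels. miR-126a is made from within the endothelial gene Egfl7 and keeps endothelial cells responsive to vascular growth factors. miR-143 and miR-145a are made together and hold smooth muscle cells in their contractile state, while miR-199a and miR-214 are cut from the long noncoding RNA Dnm3os of mesenchymal cells. In whole hippocampal tissue a lower level of such a miRNA can mean fewer cells of that type or less of the miRNA per cell, and these cannot be told apart.

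The mature sequences of miR-126a-3p, miR-199a-3p and miR-199b-3p are shown because they decide which rows of the table are separate measurements. That of miR-451a is shown as a marker of red blood cells. They come from RefSeq (GRCm38.p6), and the set of sequences used here covered 3 of the 6 miRNAs and 367 of all 422. A miRNA outside this set may still have a sequence in RefSeq. The capitals mark the seed, bases 2 to 8 counted from the 5′ end.
miR-126a-3p: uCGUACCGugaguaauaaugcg
miR-199a-3p: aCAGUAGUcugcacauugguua
miR-199b-3p: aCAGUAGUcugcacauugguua
miR-451a: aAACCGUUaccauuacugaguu
The sequences of miR-199a-3p and miR-199b-3p are the same over all 22 bases, and reads of one cannot be told from reads of the other. No other miRNA of the 367 shares their seed, and none of the 367 shares that of miR-126a-3p. Seeds of miRNAs outside the 367 were not compared. The miR-126a hairpin spans 26591357 to 26591429 of chromosome 2 (GRCm38), on the strand of Egfl7, and also lies in an intron of the gene model Gm20532. Of 9 Egfl7 transcripts that span it in GENCODE M21, 8 hold it in an intron and 1 overlaps it with an exon. miR-199a-3p comes from 2 hairpins, on chromosome 1 from 162217814 to 162217923 in an exon of Dnm3os, and on chromosome 9 from 21496495 to 21496564, opposite to an intron of Dnm2. miR-199b-3p comes from chromosome 2, from 32318460 to 32318569, opposite to an intron of Dnm1. The hairpin of miR-214 starts 5554 bases after that of miR-199a on chromosome 1, within the same Dnm3os.

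Counts on miRNAs summed to between 2247482 and 7904990 reads per library, with both extremes in BTBR mice. Levels are CPM, the counts of a miRNA scaled to the total of its library and multiplied by 1e6, after TMM normalization, which scales libraries so that most miRNAs match. The 5 neuronal miRNAs taken to check the tissue (among them the abundant miR-9-5p and miR-128-3p) were all present, at a summed 51639.9 to 80541 CPM in B6 and 60191 to 72878 CPM in BTBR libraries. BTBR was compared with B6 by the quasi-likelihood test of edgeR over all 422 miRNAs, with Benjamini-Hochberg (BH) adjustment and the 0.1 threshold of the study. In this test 7 miRNAs passed, or 1.66% of those tested, and 46 (10.9%) had an unadjusted p under 0.05. In 28 miRNAs (6.64%) the 4 libraries of one strain all lay on one side of those of the other.

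None of the 6 vascular, mural and meningeal miRNAs passed the threshold (0 of 6), with BH-adjusted p between 0.713 and 0.874 in the edgeR quasi-likelihood test. At an unadjusted p under 0.05 the count was also 0, and past the threshold it was 0 with the exact test of edgeR (3.79% of all miRNAs), with the Wald test of DESeq2 (4.98%) and with limma-voom (1.42%). In all 6 the libraries of the strains overlapped. The log2 fold change, BTBR against B6, was above 0 in 3 and below 0 in 3, with a median of 0.03, or −0.12 when the shared counts of miR-199a-3p and miR-199b-3p entered once. The median over all 422 miRNAs was 0.02. A difference between the strains was thus not detectable in any of them with 4 mice per strain, and the 95% interval of each fold change states the sizes that the data still allow.

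**Figure D1:**
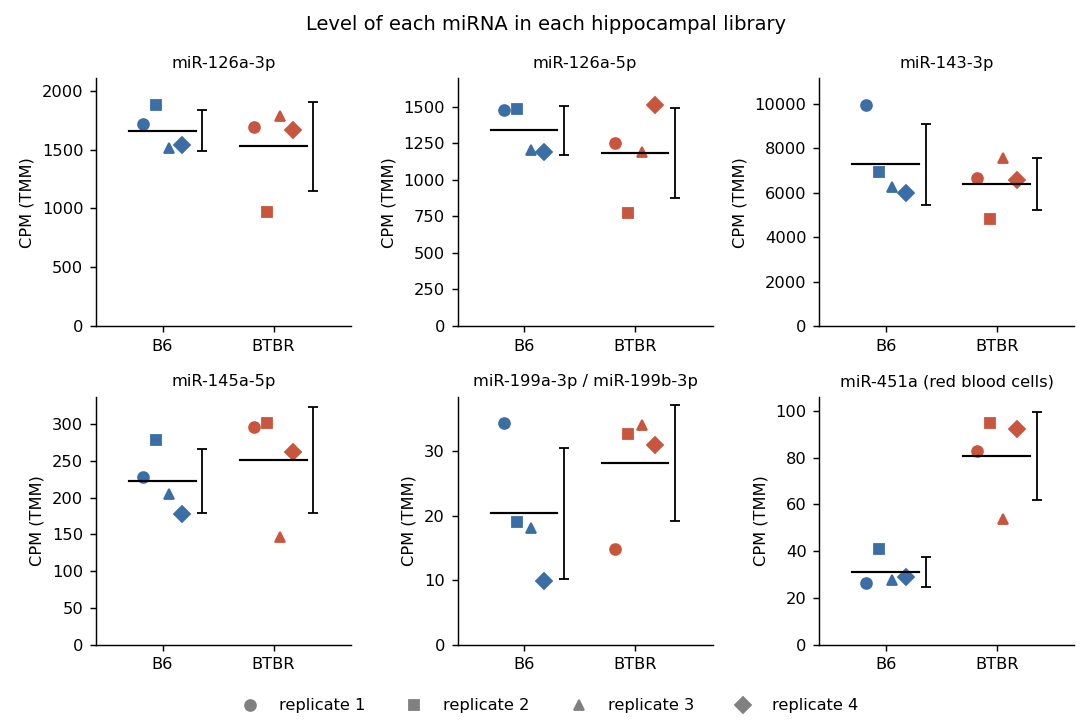
Level of each miRNA in CPM (linear axes from 0) in the 4 B6 (blue) and 4 BTBR (red) libraries, 1 marker shape per replicate number, with the mean as a line and the SD as a bar beside it. The strains overlap in the 5 panels of vascular, mural and meningeal miRNAs, while for miR-451a every BTBR library lies above every B6 library.

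miR-126a-3p, the guide strand of the endothelial hairpin, had 1717, 1880.3, 1515 and 1536 CPM in B6 replicates 1 to 4, and 1689.9, 969, 1787 and 1669.6 CPM in BTBR replicates 1 to 4. The B6 mice lay close together, at 1662 ± 171 CPM (SD, n = 4), and 3 of the BTBR mice fell within their range, while BTBR replicate 2 lay below all others. Between the strains the log2 fold change was −0.12 (standard error 0.22, BH-adjusted p = 0.874 by edgeR), and its 95% interval ran from 0.663-fold to 1.28-fold of the B6 level. Permuting the strain labels in all 70 ways (exact test, two-sided) gave p = 0.714. The sign turned with 1 mouse, since without BTBR replicate 2 the log2 fold change was 0.02, and it was also 0.02 when libraries were scaled by their totals only.

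miR-126a-5p, the other arm of this hairpin, had 1481, 1485, 1204 and 1187 CPM in the B6 libraries and 1254, 770.3, 1193 and 1512 CPM in the BTBR libraries. BTBR replicate 2 was again the lowest and BTBR replicate 4 the highest of all. BTBR against B6 the log2 fold change was −0.18 (standard error 0.22, 95% interval 0.631-fold to 1.24-fold, BH-adjusted p = 0.797 by edgeR). It was −0.05 without BTBR replicate 2, −0.36 without BTBR replicate 4 and −0.10 without B6 replicate 2. miR-126a-3p was above miR-126a-5p in 8 of 8 libraries, and the balance of the arms was steady. The 3p arm had between 1.16 and 1.29 counts per count of the 5p arm in B6, and between 1.10 and 1.497 in BTBR libraries. The log2 ratio was 0.31 ± 0.07 in B6 and 0.37 ± 0.18 in BTBR mice (SD, n = 4), a difference of 0.06 that was not larger than the spread between mice (exact permutation test, p = 0.6, BH-adjusted p = 0.72 over 6 ratios tested). Both arms were low together in BTBR replicate 2, where their ratio was 1.26.

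BTBR replicate 2 had the fewest counts of all libraries (2247482), with 2159 reads of miR-126a-3p (exact Poisson 95% interval 2069 to 2252 reads, counting error only). In the same library the 5 leukocyte and microglia miRNAs present summed to 1746 CPM, against 892 to 1149 CPM in the other 7 libraries. miR-146a-5p made up 1034 CPM of that sum, and 4 of the 5 were at their highest there, whereas miR-142a-5p was at its lowest, with 30.1 CPM against 40.8 to 63.9 CPM elsewhere. The part of this in the low miR-126a was not tested.

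The mural hairpins are neighbours on chromosome 18 (GRCm38), where miR-143 spans 61649196 to 61649258 and miR-145a spans 61647825 to 61647894, both on the minus strand and outside genes annotated in GENCODE M21. Their starts are 1371 bases apart. miR-143-3p was the most abundant of the vascular miRNAs and ranked 21st of 422, with 9938, 6946, 6229 and 5962 CPM in the B6 libraries and 6646, 4791, 7559.7 and 6561 CPM in the BTBR libraries. B6 replicate 1 stood highest, and the other B6 libraries lay among those of the BTBR mice. For miR-143-3p the log2 fold change was −0.19 (standard error 0.22, 95% interval 0.634-fold to 1.22-fold, BH-adjusted p = 0.787 by edgeR). Without B6 replicate 1 it was −0.06, without BTBR replicate 2 −0.09, and without B6 replicate 3 or 4 it was −0.29.

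miR-145a-5p, from the same cluster, had 229, 279, 205 and 178 CPM in the B6 libraries and 296, 301, 147 and 261 CPM in the BTBR libraries. Here 2 BTBR libraries lay above all B6 libraries and BTBR replicate 3 lay below all of them. Its log2 fold change was 0.18 (standard error 0.26, 95% interval 0.763-fold to 1.67-fold, BH-adjusted p = 0.822 by edgeR). It was 0.36 without BTBR replicate 3 and 0.33 without B6 replicate 2. In the fits that left out another of the 8 libraries it lay between 0.04 and 0.12, lowest without B6 replicate 4 and without BTBR replicate 2. The log2 fold changes of miR-143-3p and miR-145a-5p thus had opposite signs in the fit with all mice, and neither differed from 0 beyond its error.

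The ratio of miR-143-3p to miR-145a-5p counts was 43.5, 24.9, 30.4 and 33.6 in the B6 libraries and 22.4, 15.9, 51.5 and 25.1 in the BTBR libraries. It spanned 1.74-fold among B6 and 3.23-fold among BTBR mice, and both the lowest and the highest ratio belonged to BTBR mice. The strain difference of the log2 ratio was −0.32, from 5.02 ± 0.33 in B6 to 4.70 ± 0.71 in BTBR mice (SD, n = 4). This was within the spread between mice (exact permutation test, p = 0.457, BH-adjusted p = 0.686 over 6 ratios). Single mice moved it, to −0.64 without BTBR replicate 3, −0.08 without BTBR replicate 2 and −0.17 without B6 replicate 1. For comparison, the ratio of the miR-126a arms spanned 1.36-fold in BTBR mice, and these spans were not compared by a test.

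The high miR-143-3p of B6 replicate 1 stood beside another tissue. The 8 choroid plexus miRNAs taken as markers (among them miR-204-5p and miR-34c-5p) were all present and summed to 39776 CPM in B6 replicate 1 and 16348 CPM in B6 replicate 2, against 5203 and 6399 CPM in the other B6 libraries and 5243 to 9543 CPM in the BTBR libraries. The choroid plexus is a vascular tissue of the ventricles next to the hippocampus, and its stroma holds mural cells and fibroblasts. Of all miRNAs outside the vascular ones, those whose log2 level was most like that of miR-143-3p over the 8 libraries were miR-448-3p (Pearson's r = 0.92), miR-1298-3p (0.86) and miR-1298-5p (0.85), of which the first and last are on the choroid plexus list and were also picked by the study from these libraries. These correlations were picked as the highest and are a description over 8 libraries. Without B6 replicate 1 they were 0.82, 0.63 and 0.61, and without BTBR replicate 2 they were 0.87, 0.92 and 0.85. In all 6 vascular, mural and meningeal rows, B6 replicates 1 and 2, which had the most choroid plexus miRNAs, stood above B6 replicates 3 and 4. The miRNAs closest to miR-126a-3p were miR-384-5p (r = 0.98), miR-323-3p (0.97) and miR-136-5p (0.96), none of them on the choroid plexus list, and without BTBR replicate 2 these correlations were 0.89, 0.88 and 0.60. For miR-145a-5p the closest were miR-8112 (0.88), miR-150-5p (0.86) and miR-330-3p (0.83). The part of choroid plexus in the level of miR-143-3p and of the other 5 rows was not tested, and for miR-143-3p the log2 fold change of −0.06 without B6 replicate 1 is the value free of that library.

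**Figure D2:**
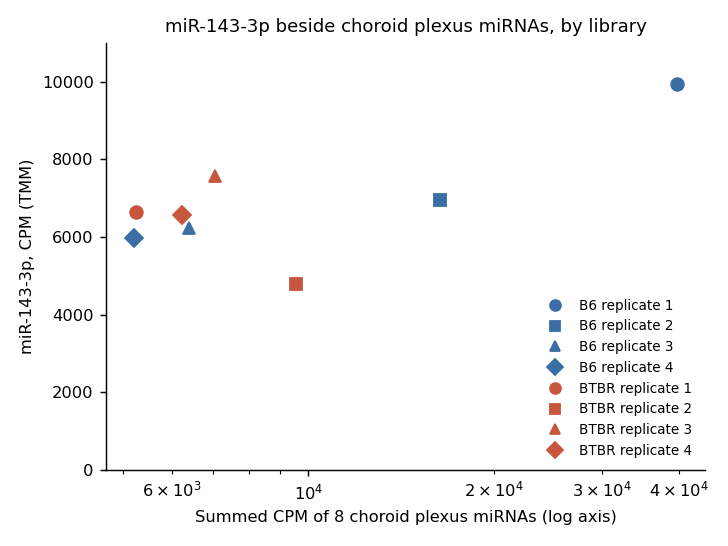
Level of miR-143-3p in CPM (linear axis from 0) against the summed CPM of 8 choroid plexus miRNAs (log axis), 1 point per library, with B6 in blue and BTBR in red and 1 marker shape per replicate number. B6 replicate 1, at 39776 CPM of choroid plexus miRNAs and 9938 CPM of miR-143-3p, lies apart, and B6 replicate 2, at 16348 CPM, has 6946 CPM of miR-143-3p.

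miR-199a-3p and miR-199b-3p, the mesenchymal miRNAs with a shared sequence shown above, were scarce and ranked 252nd of 422. Each row had 34.4, 19.1, 18.2 and 9.89 CPM in the B6 libraries and 14.8, 32.8, 34.1 and 31.0 CPM in the BTBR libraries. In BTBR, 3 mice had 31.0 CPM or more, as did B6 replicate 1, whereas BTBR replicate 1 lay among the lower B6 mice. The mean was 20.4 ± 10.2 CPM for B6 and 28.2 ± 8.998 CPM in BTBR mice (SD, n = 4). On the log2 scale the difference was 0.46 (standard error 0.40, BH-adjusted p = 0.713 by edgeR), and its 95% interval of 0.754-fold to 2.52-fold is the widest of the 6 rows. The counts per row lay between 44 and 258 reads, the fewest of these miRNAs. The sources used here do not state how reads that match both names were counted in the deposited table, so each row may hold all or a part of the reads of this sequence, and the fold change of both is the same. Leaving out B6 replicate 1 gave a log2 fold change of 0.77, and leaving out B6 replicate 4, the lowest, gave 0.21. Leaving out BTBR replicate 1 gave 0.68. An exact permutation test on the log2 level gave p = 0.371.

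miR-199a-3p was also set against the mural miR-143-3p within each library, which needs no scaling between libraries. Per count of miR-143-3p the miR-199a-3p row had 0.00347, 0.00276, 0.00293 and 0.00168 counts in the B6 libraries, and 0.00224, 0.00689, 0.00452 and 0.00474 in the BTBR libraries. The log2 ratio was higher in BTBR by 0.70, from −8.58 ± 0.45 to −7.87 ± 0.68 (SD, n = 4), but BTBR replicate 1 lay below 3 of the B6 libraries. The difference did not pass (exact permutation test, p = 0.143, BH-adjusted p = 0.286 over 6 ratios). Without BTBR replicate 1 it was 1.01 with a BH-adjusted p of 0.0857 by the same exact test, the lowest of its alternatives. The highest, 0.75, was that with the replicate number as a block. The miRNAs most like miR-199a-3p over the libraries were miR-203-3p (r = 0.87), miR-127-5p (0.86) and miR-183-5p (0.80). The arm miR-199a-5p and the Dnm3os neighbour miR-214-3p, which would give a second reading of the same cells, were not analysed here.

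In each of the 8 libraries the order of the CPM levels was miR-143-3p, miR-126a-3p, miR-126a-5p, miR-145a-5p and miR-199a-3p. These are reads per mature miRNA of nearly the same length, and the ease with which each is captured in a library was not measured, so that the order holds for reads and not for molecules. Together the 5 different rows summed to 10513 ± 2068 CPM for B6 and 9379.97 ± 1715 CPM for BTBR (SD, n = 4). The ratio of the endothelial miR-126a-3p to the mural miR-143-3p was 0.173, 0.271, 0.243 and 0.258 in B6 and 0.254, 0.202, 0.236 and 0.254 in BTBR libraries. Apart from B6 replicate 1, the lowest, and BTBR replicate 2, it stayed between 0.236 and 0.271. The log2 ratios, −2.10 ± 0.29 in B6 and −2.08 ± 0.16 in BTBR mice (SD, n = 4), differed by 0.02 (exact permutation test, p = 0.914). Without B6 replicate 1 the difference was −0.12, and without BTBR replicate 1 or 4 it was −0.02.

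**Figure D3:**
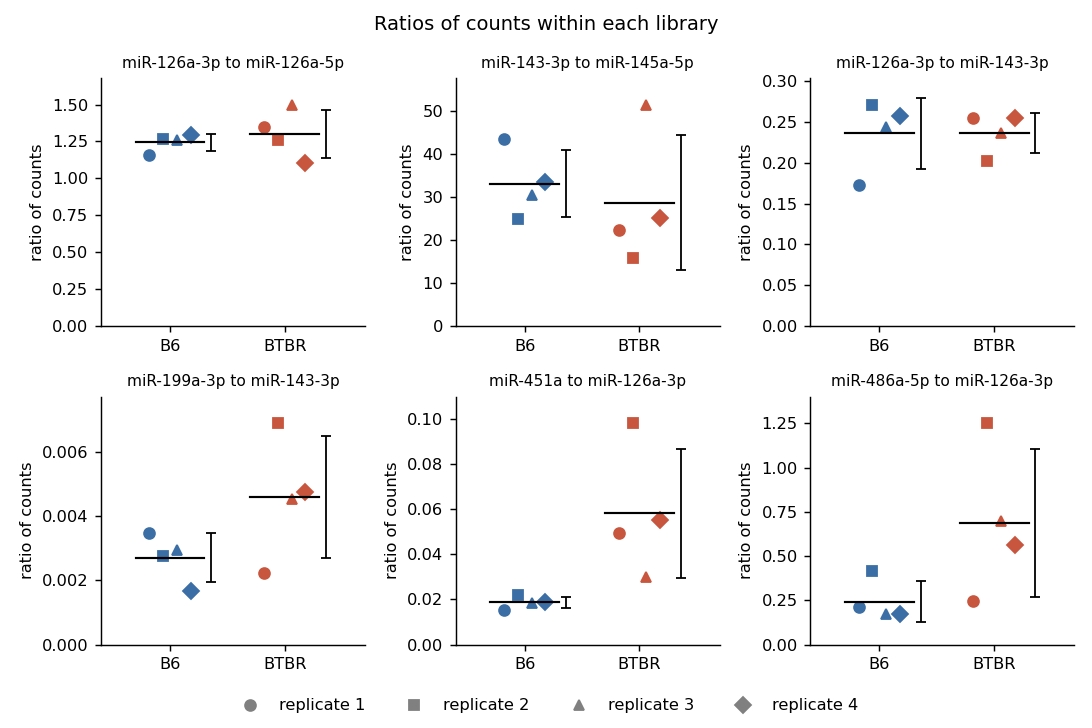
Ratio of counts of the miRNAs named above each panel, within each library (linear axes from 0), for 4 B6 (blue) and 4 BTBR (red) mice, 1 marker shape per replicate number, with the mean as a line and the SD as a bar. The strains overlap in the 4 ratios among vascular, mural and meningeal miRNAs and in that of miR-486a-5p to miR-126a-3p, and do not overlap in that of miR-451a to miR-126a-3p.

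The red blood cell miRNAs were taken as markers of blood in the tissue, and blood content itself was not measured. For them too, the number of cells and the level per cell cannot be told apart. miR-451a, which is needed for red blood cells to mature, and miR-486a-5p, also abundant in them, were among the miRNAs that the study picked from these libraries, so their direction is not independent evidence here. miR-451a had 26.5, 40.8, 27.9 and 29.0 CPM in the B6 libraries and 83.0, 94.7, 53.6 and 92.3 CPM in the BTBR libraries. Its log2 fold change was 1.38, with a 95% interval of 1.74-fold to 3.89-fold (BH-adjusted p = 0.0339 by edgeR). That interval lies above those of miR-126a-3p, miR-126a-5p, miR-143-3p and miR-145a-5p, and overlaps that of miR-199a-3p. With the replicate number as a block the BH-adjusted p of miR-451a was 0.104, and without BTBR replicate 4 it was 0.125, the highest of a range over the alternatives from 6.62e-05. miR-486a-5p had 367, 778, 258 and 264 CPM in B6 and 411, 1212, 1244 and 941 CPM in BTBR libraries, with a log2 fold change of 1.19 (BH-adjusted p = 0.254 by edgeR). It passed without B6 replicate 2, at a log2 fold change of 1.72 and a BH-adjusted p of 0.0497 by edgeR, and with DESeq2, at 0.0962, while other alternatives reached 0.567.

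Per count of the endothelial miR-126a-3p there were 0.0155, 0.0218, 0.0184 and 0.0189 counts of miR-451a in the B6 libraries and 0.0492, 0.0979, 0.0301 and 0.0553 in the BTBR libraries. All 4 BTBR mice lay above all 4 B6 mice, and BTBR replicate 2, which had the least miR-126a-3p, had the highest ratio. The ratio was 2.87-fold higher in BTBR mice, a log2 difference of 1.52 (exact permutation test, p = 0.0286, the smallest value that 70 assignments allow). Adjusted over the 6 ratios p was 0.171, which does not pass 0.1. For miR-486a-5p the ratio to miR-126a-3p was 0.171 to 0.414 in B6 and 0.243 to 1.25 in BTBR libraries. The log2 difference was 1.38, and the strains overlapped through BTBR replicate 1 (exact permutation test, p = 0.0571, BH-adjusted p = 0.171 over 6 ratios). The 6 red blood cell miRNAs listed were all present, as 5 different sets of counts, since the row of miR-486b-5p repeats that of miR-486a-5p. Past the threshold was 1 of the 6 in the edgeR quasi-likelihood test, against 1.66% of all miRNAs, and 2 with its exact test (3.79% of all). With DESeq2 it was 4, among them both names of miR-486 (4.98% of all), and with limma-voom 1 (1.42% of all). In the quasi-likelihood test it was 4 without B6 replicate 2 (3.08% of all), again with both names of miR-486, and 0 without BTBR replicate 4 (0.711% of all). The log2 fold change was above 0 in all 6 rows, with a median of 1.19 against 0.02 over all miRNAs, and the summed level was 307 to 855 CPM in B6 and 541 to 1376 CPM in BTBR libraries.

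**Figure D4:**
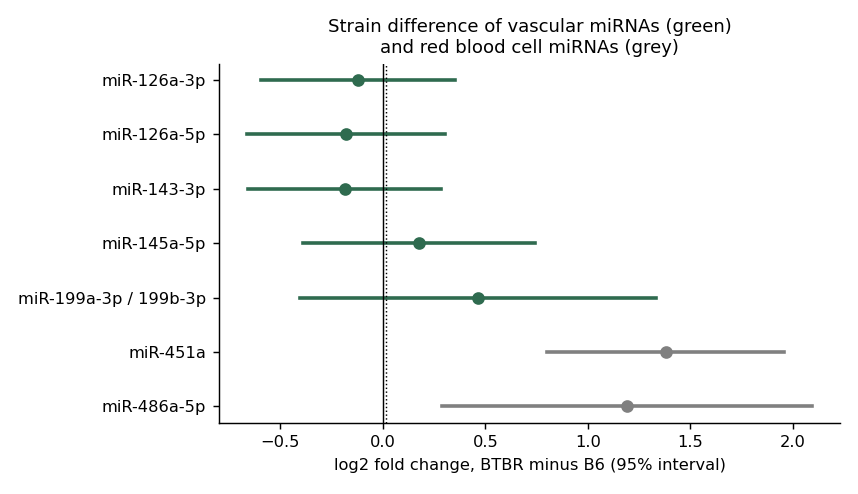
Log2 fold change of BTBR against B6 (points) with its 95% interval (bars) from the edgeR quasi-likelihood fit over 422 miRNAs, for the vascular, mural and meningeal miRNAs in green and the red blood cell miRNAs in grey, with 0 as a solid line and the median of all miRNAs, 0.02, as a dotted line. The green intervals all include 0, from miR-126a-3p at −0.12 to miR-199a-3p at 0.46, and both grey intervals lie above 0.

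Beside these markers, 15 miRNAs that vessels share with other cells were examined as a list: the miR-23, miR-24 and miR-27 group, which acts in endothelial growth, miR-221-3p and miR-222-3p, which restrain it, and miR-10, miR-21, miR-130a, miR-195a, miR-497a, miR-322 and miR-503. All 15 were present, and 0 passed the threshold in either direction in the edgeR quasi-likelihood test, against 1.66% of all miRNAs, and 0 had an unadjusted p under 0.05, against 10.9%. Past the threshold were also 0 with the exact test of edgeR (3.79% of all), DESeq2 (4.98%) and limma-voom (1.42%). Without B6 replicate 2 an unadjusted p under 0.05 was reached by 4 of the 15, against 14.7% of all miRNAs, and without BTBR replicate 1 by 1, against 13.5%. The log2 fold change was above 0 in 8 and below 0 in 7, with a median of 0.22 against 0.02 over all miRNAs. This median lay between −0.03 (without B6 replicate 4) and 0.15 with 1 library left out. Their summed level overlapped between the strains, at 12537 to 14291 CPM in B6 and 12035 to 13523 CPM in BTBR libraries. The most abundant were miR-24-3p (log2 fold change −0.16, standard error 0.22), miR-27b-3p (−0.21, standard error 0.20), miR-221-3p (−0.36, standard error 0.23) and miR-21a-5p (0.64, standard error 0.29). Leaving out BTBR replicate 2 gave −0.03 for miR-24-3p and −0.08 for miR-27b-3p, and leaving out BTBR replicate 1 gave −0.37 for miR-24-3p. miR-21a-5p had a mean of 1575 ± 188 CPM for B6 and 2454 ± 1235 CPM for BTBR (SD, n = 4), with a BH-adjusted p of 0.451 by edgeR. BTBR replicate 2 stood apart with 4257 CPM, against 1480.4, 2163 and 1914 CPM in BTBR replicates 1, 3 and 4, and without it the log2 fold change was 0.21, while that of miR-221-3p was −0.49.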

How the data were processed

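Hippocampal small RNA from 4 BTBR and 4 B6 mice was sequenced with the Illumina TruSeq Small RNA kit. The authors trimmed adapters, checked reads with FastQC 0.11.2, mapped them to GRCm38 by sRNAbench, which runs Bowtie, assigned those falling wholly inside miRBase v21 annotations, and deposited whole-number read counts per miRNA and library, without normalization. How reads shared by several miRNA names were counted is not stated. Fractional values in the supplement would fit an equal division, while the deposited counts are whole numbers. Libraries were matched to mice by the library names in the labels, which name no batch. Within a strain, any 2 libraries differed beyond sampling noise (chi-square per degree of freedom of at least 81.7).

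Counts were fitted with edgeR 4.0.16 in R 4.3.3 (TMM, quasi-likelihood test, no covariates, no filter, Benjamini-Hochberg adjustment over 422 miRNAs, threshold 0.1), after the fit was tested on simulated data. Intervals are at 95%, from the standard error and the total degrees of freedom of the quasi-likelihood fit. Exact permutation tests were two-sided, on log2(CPM + 0.5) or on log2 ratios of counts + 0.5, over 70 assignments, and 6 ratios were adjusted together. Lists of markers (hippocampal neurons, vessel-associated miRNAs, red blood cells, leukocytes and microglia, choroid plexus, oligodendrocytes and muscle) were described by counts and sums. Members, lists and tests were chosen with earlier results of these data known. All members present were named, with the 3 miRNAs of highest Pearson's r to miR-126a-3p, miR-143-3p, miR-145a-5p and miR-199a-3p, and from lists those past the threshold or most abundant. Alternatives were the exact test of edgeR, DESeq2 1.42.0, limma-voom (limma 3.58.1), other scalings, a filter of 10 CPM in 4 libraries, identical rows kept once, a threshold of 0.05, the replicate number as a block and each library left out. Plots used matplotlib 3.10.9 in Python 3.11.15. The spread between libraries is that between mice, and the counts carry no molecular identifiers.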

Additional observations from a re-analysis of the deposited data

Results flagged for a closer look

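Among 26 groups of 4 values (5 different sets of vascular, mural and meningeal counts, miR-451a, miR-486a-5p and the 6 ratios, each in both strains), 2 held a library far from the other 3, with a gap, as a share of the range of the group, above Dixon's 95% critical value for 4 values. Chance alone gives such a gap in about 1 of 20 groups. The miR-126a-3p level of BTBR replicate 2, at 969 CPM, lay below the other BTBR libraries by 0.857 of the range. The level of miR-199a-3p and miR-199b-3p in BTBR replicate 1, at 14.8 CPM, lay below the others by 0.843 of the range. What set these libraries apart was not tested.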

How the results depend on the processing

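The count of vascular, mural and meningeal miRNAs past the threshold was 0 under all 17 alternatives. The count over all miRNAs was 7, and it was 16 with the exact test of edgeR, 21 with DESeq2, 4 with libraries scaled by their totals, 4 at a threshold of 0.05, 3 with the replicate number as a block, and 3 to 13 with each library left out (13 without B6 replicate 2, 4 without BTBR replicate 1, and 3 without BTBR replicate 3 or 4). The cause was not tested. The log2 fold change of miR-126a-3p turned from −0.12 to 0.0220 with libraries scaled by their totals, where the median of all miRNAs moved from 0.02 to 0.15, and it lay between −0.208 and 0.0203 (without BTBR replicate 2) over the fits leaving out 1 library. The signs of the other 5 rows held under every alternative. miR-451a was past the threshold under 14 of 16 alternatives, the exceptions being the block (BH-adjusted p = 0.104 by edgeR) and the fit without BTBR replicate 4. Leaving out 1 library gave log2 differences of −0.0131 to 0.133 for the ratio of the miR-126a arms (below 0 without BTBR replicate 3), −0.643 to −0.0786 for miR-143-3p to miR-145a-5p, −0.124 to 0.0932 for miR-126a-3p to miR-143-3p, 0.47 to 1.01 for miR-199a-3p to miR-143-3p and 1.23 to 1.80 for miR-451a to miR-126a-3p. Only without BTBR replicate 1 did a ratio pass 0.1, those of miR-199a-3p to miR-143-3p (1.01) and of miR-451a to miR-126a-3p (1.56). Each had a BH-adjusted p of 0.0857 by exact permutation there. The highest values elsewhere, 0.75 and 0.375, were those with the replicate number as a block. Same-numbered mice did not deviate together (Pearson's r −0.15 to 0.05 across miRNAs), so no pairing by number was seen over all miRNAs. Whether a part of the miRNAs is paired was not tested. The blocked differences of the ratios equal the unblocked ones by construction, and their p cannot go below 0.125. Rows of 44 to 258 reads limit what can be said of miR-199a-3p, and miRNAs without a row were not analysed here.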

Other observations

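The lists of neuronal, leukocyte and microglia, oligodendrocyte, muscle and choroid plexus miRNAs held 0 past the threshold in the edgeR quasi-likelihood test, against 1.66% of all miRNAs. With the exact test of edgeR, DESeq2 and limma-voom these lists also held 0, except that of the choroid plexus, where 3 of 8 passed with the exact test (miR-1298-5p, miR-204-3p and miR-448-3p, against 3.79% of all miRNAs), 2 with DESeq2 (4.98% of all) and 0 with limma-voom (1.42% of all), all lower in BTBR. Of 6 leukocyte and microglia miRNAs, 5 were present and miR-223-3p, the best known of myeloid cells, had no row. The log2 fold change was above 0 in all 5, with a median of 0.15, but without BTBR replicate 2 it was above 0 in 2 and below 0 in 3, with a median of −0.18. They summed to 1045 to 1149 CPM in B6 and 892 to 1746 CPM in BTBR libraries, the highest in BTBR replicate 2. The mean of miR-146a-5p was 607 ± 54.3 CPM for B6 and 621 ± 277 CPM for BTBR (SD, n = 4), with a log2 fold change of 0.03, or −0.36 without BTBR replicate 2. That of miR-150-5p, a lymphocyte miRNA, was 314 ± 35.3 and 376 ± 109 CPM.

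The 3 muscle miRNAs were all above 0, with a median of 0.81, or 0.41 without BTBR replicate 2 and 1.09 without B6 replicate 2, where 1 passed the threshold, against 13 of all 422 miRNAs. They summed to 594 to 983 CPM in B6 and 786 to 1204 CPM in BTBR libraries. Of the 3, 1 had an unadjusted p under 0.05, against 10.9% of all miRNAs. The 3 oligodendrocyte miRNAs had a median of −0.34, which lay between −0.53 (without B6 replicate 4) and −0.11 (without B6 replicate 2), and summed to 2238 to 4256 CPM in B6 and 2289 to 2922 CPM in BTBR libraries. Of the 5 neuronal miRNAs 3 were above 0 and 2 below, with a median of 0.06 that lay between −0.16 (without BTBR replicate 3) and 0.22 (without BTBR replicate 2). In the leukocyte and microglia, oligodendrocyte and neuronal lists 0 had an unadjusted p under 0.05, against 10.9% of all miRNAs. With 1 library left out at most 1 of each list did, against 6.87% to 14.7% of all miRNAs. Of the 8 choroid plexus miRNAs 7 lay below 0 and the median was −1.12, with 4 at an unadjusted p under 0.05, against 10.9% of all miRNAs. B6 replicates 1 and 2 held the high levels, at a summed 39776 and 16348 CPM, while the other B6 libraries, at 5203 and 6399 CPM, lay below or within the 5243 to 9543 CPM of the BTBR libraries. Without B6 replicate 1 the median was −0.41 and 2 had an unadjusted p under 0.05, against 6.87% of all miRNAs in that fit. Without B6 replicate 3, 2 of the 8 passed the threshold, against 7 of all 422 miRNAs, and without B6 replicate 4, 3 of the 8, against 8 of all 422. Leaving out single libraries for these lists was chosen after seeing the data.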
